A study of Homo sapiens with 12 samples.

Results

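The cytosolic ribosomal proteins form the protein part of the ribosome outside mitochondria, and their transcripts were followed here in HCC827 cells, which come from a non-small cell lung tumour and carry an activating EGFR mutation. Members were all array probes whose platform symbol is RPL or RPS with a number and an optional A, X, Y1 or L, or one of RPLP0, RPLP1, RPLP2 and RPSA, without the RPS6 kinases and without pseudogenes. The rule used symbols only, no measured value. It found 120 probes for 73 genes, 46 of the large and 27 of the small subunit, among 30113 probes with 1 gene symbol. Of these, 114 probes for 71 genes were detected on at least 3 arrays (detection p under 0.05) and were tested with 18238 probes in all, and 112 were detected on all 12 arrays. RPLP0, RPSA and RPS27A were not analysed here, and no value of RPS4Y1 is given.

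The study measured 12 Illumina bead arrays, 3 in each of 4 groups, to ask how lung fibroblasts change the response of the cancer cells to gefitinib, an inhibitor of the EGFR kinase. HCC827 cells had been grown alone with DMSO, alone with 0.5 µM gefitinib given after 24 h, in co-culture with the normal human lung fibroblast line MRC-5 without gefitinib, or in co-culture with gefitinib. The fibroblasts shared the medium through inserts with 1 µm pores for 48 h. Per the labels, co-culture was done in EMEM and routine growth in another medium. The labels do not state the medium of the cells grown alone during the last 48 h, and it is not clear from them whether the drug stayed on during that time. All 6 co-culture arrays carry the suffix WH in their titles, and their scanner rows stood in another order than those of the 6 monoculture arrays, so that co-culture, medium and this block cannot be told apart. Nothing in the labels says that the 3 arrays of a group came from separate cultures, so p-values measure the spread between arrays.

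Each ribosome holds 1 large and 1 small subunit, built around ribosomal RNA. The large subunit (RPL proteins) joins amino acids and carries a flexible stalk of acidic P proteins that recruits translation factors, while the small subunit (RPS proteins) reads the messenger RNA. The messenger RNAs of ribosomal proteins are among the most abundant of a growing cell and are held at similar levels. Most start with a C followed by a run of pyrimidines, the terminal oligopyrimidine (TOP) tract, through which the kinase mTOR and the RNA-binding protein LARP1 regulate their translation. EGFR signalling feeds into mTOR and MYC, and a few ribosomal proteins have further roles: free RPL5 and RPL11 bind MDM2 and so stabilise p53, and RPS27L is a p53 target.

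The start of the transcripts is shown for 8 members that recur below, since the tract is the regulatory feature that most members share. The windows run from 10 bases before to 20 bases from the annotated start, 5′ to 3′ on the gene's strand, from RefSeq on GRCh38.p14, with the tract in capitals. A tract was counted when the start base was C and an unbroken run of C or T from it was at least 5 bases long, read on the gene's strand only.
RPL39: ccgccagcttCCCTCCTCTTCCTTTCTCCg
RPS24: aatcgtggttCTCTTTTCCTCCTTggctgt
RPLP1: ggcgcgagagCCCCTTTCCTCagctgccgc
RPL36A: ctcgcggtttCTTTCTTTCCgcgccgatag
RPS9: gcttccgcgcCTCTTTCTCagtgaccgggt
RPL13A: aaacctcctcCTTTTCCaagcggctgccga
RPS7: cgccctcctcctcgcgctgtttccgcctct
RPS27L: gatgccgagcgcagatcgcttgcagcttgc
In that order they lie at chrX:119791611-119791640 (minus strand), chr10:78033853-78033882 (plus), chr15:69452808-69452837 (plus), chrX:101391001-101391030 (plus), chr19:54200848-54200877 (plus), chr19:49487598-49487627 (plus), chr2:3575250-3575279 (plus) and chr15:63157458-63157487 (minus).

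By this count, 44 of the 61 member genes with a promoter in the RefSeq table held a tract (72.1%), against 1429 of all 35116 promoters (4.07%). The tract of RPL39 was 19 bases long and that of RPS24 14 bases, while RPS7 had only 3 and RPS27L had no C at its annotated start. A tract shifted by a base or more from the annotated start would not be counted.

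All 6 epithelial markers (CDH1, EPCAM, KRT7, KRT8, KRT18, KRT19) were detected on every array, with a summed level of 14.76 to 15.04 (log2 intensity). Of 10 fibroblast markers, 2 were detected on all arrays of DMSO monoculture (COL1A1, LUM), 3 of gefitinib monoculture, 0 of co-culture and 2 of co-culture with gefitinib, and their summed level was 10.67 to 10.84 over all arrays. Single markers did move between groups. With gefitinib in monoculture the fibroblast genes LUM and COL1A1 rose by 0.68 ± 0.10 and 0.53 ± 0.10 on the log2 scale (limma's adjusted p = 2.06e-06 and 7.87e-05), 2 of the 5 fibroblast probes tested, from levels of 6.99 and 6.88. Among 9 epithelial probes 1 rose (KRT7, by 0.32) and 3 fell, KRT8 by 1.35, KRT18 by 1.35 on 1 of its 2 probes and EPCAM by 0.25 on 1 of its 3. With gefitinib in co-culture KRT8 and KRT18 fell by 0.74 and 0.42, while LUM and COL1A1 changed by 0.30 and 0.15 and did not pass. Under gefitinib, 3 of 9 epithelial probes were higher in co-culture than in monoculture and 3 were lower. The higher ones were KRT18 by 1.08, EPCAM by 0.81 and KRT8 by 0.74, on 1 probe each. Among the 5 fibroblast probes LUM and COL1A1 passed, with differences of -0.64 and -0.54. Without gefitinib, co-culture differed from monoculture by 0.53 for EPCAM, -0.36 for CDH1 and -0.30 for KRT19, which passed. There 0 of the 5 fibroblast probes passed. The part of these shifts in the member changes was not tested. Between 43.4% and 46.5% of probes were detected per array, and arrays of a group correlated at r = 0.9921 to 0.9958. In RNA from a whole culture, fewer cells of a type and less RNA per cell cannot be told apart, and values normalized between arrays do not show a change that all transcripts share.

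Most members were among the brightest probes of the array. Levels here are log2 of the authors' normalized intensity. Changes are compared within a probe, and levels of different probes serve only to rank them by brightness. The median member level was 13.32 to 13.43 on the 12 arrays, against 7.32 to 7.37 for all tested probes, and the brightest probe of an array stood at 14.39 to 14.70. Mean levels of tested members ran from 6.69 to 14.26. A group of 64 member probes had a mean level of at least 13, a bound chosen after the values were seen, and 50 lay under it. The median standard deviation within a group was 0.064 for the bright members and 0.107 for the dim ones.

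Some members were near or at background. RPL3L, a muscle paralog of RPL3, was detected on 0 arrays. Both probes of RPL10, a protein near the site where peptide bonds form, were detected on 2 arrays each, and so were no measure of that gene. The second probes of RPL36A, RPL37 and RPS27L were detected on 1, 2 and 1 arrays. RPL10L, a testis paralog of RPL10, passed the filter at a mean level of 6.69 and was not detected on any array of co-culture with gefitinib. It read 6.72, 6.81 and 6.61 in co-culture without the drug, where 2 arrays detected it, and 6.58, 6.74 and 6.61 with the drug. These groups overlapped at background level and the probe did not pass, so no fold change is given.

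Gefitinib given to cells grown alone moved a limited set of ribosomal protein probes in both directions. By limma's moderated test with Benjamini-Hochberg adjustment over all 18238 probes at a threshold of 0.05, 21 member probes rose and 13 fell. These 34 of 114 (29.8%) belonged to 27 genes. Of all tested probes 32.1% passed, 17.1% as rises and the rest as falls. That share includes probes detected on as few as 3 arrays, whereas 112 of the 114 members were detected on all 12. With only such probes tested, 39.2% of other probes at a mean level of at least 13 passed, and 46.4% under it. The members gave 3.12% and 68.8% there. In the same comparison LUM, COL1A1 and KRT7 were higher and KRT8, KRT18 and EPCAM lower on called probes, as given above. The median change of the members was 0.05 on the log2 scale and their range -0.98 to 1.48, with 1 probe changed by 2-fold or more, against a median of 0.00 over all tested probes. In the large subunit 15 probes rose and 8 fell of 69, and in the small subunit 6 rose and 5 fell of 45. The balance of rises and falls depended on scaling. With scanner intensities scaled by their median, falls outnumbered rises among the members, as given below.

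**Figure D1:**
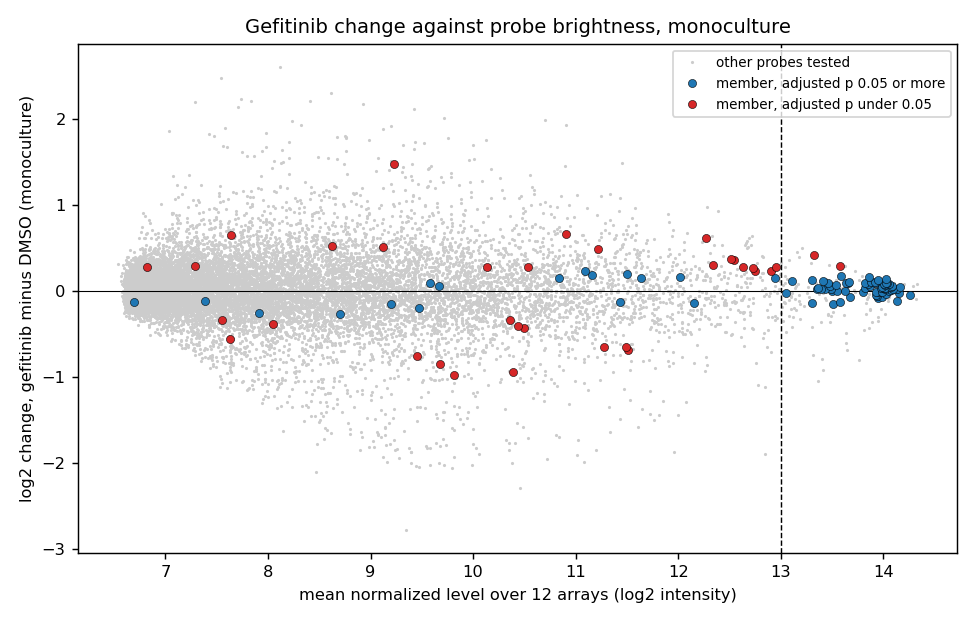
Log2 change with gefitinib in monoculture (vertical axis) against the mean normalized level over 12 arrays (horizontal axis, log2 intensity) for every tested probe; grey points are other probes, blue and red points are members that missed or passed an adjusted p of 0.05, and the dashed line marks a level of 13. Of the 64 members right of the line 2 passed, and of the 50 left of it 32 passed.

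The calls fell almost wholly on the dim probes. Of the 64 members with a mean level of at least 13, 2 passed (3.12%): RPL12, which rose by 0.42, and RPL3, which rose by 0.29. Among 120 other probes at or above that level, 44 passed (36.7%). Of the 50 dimmer members 32 passed (64.0%), against 32.1% of 18004 other probes. Many of those other probes were near background. With only probes detected on all 12 arrays tested, 33 of 48 dimmer members passed (68.8%), against 5497 of 11844 others (46.4%). Bright members were brighter than the other bright probes, with a median mean level of 13.90 against 13.50. At levels from 13 to under 14, 2 of 44 members passed (4.55%) against 43 of 100 other probes (43.0%). At levels of 14 and above, at the top of the scale, 0 of 20 members and 1 of 20 other probes passed (limma), with median absolute changes of 0.0447 and 0.0656. These splits were chosen after the values were seen and carry no test. Whether the arrays respond less at this brightness was not tested.

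The probe with the largest rise was one of 4 for RPS29, a zinc-binding protein of the small subunit's head. Its level (probe ILMN_2298818) was 8.94, 8.81 and 9.15 on the 3 DMSO arrays and 10.54, 10.48 and 10.31 with gefitinib. In co-culture it was 8.61, 8.88 and 8.72 without and 9.05, 8.53 and 8.70 with the drug. The gefitinib monoculture arrays thus stood above the other 9 with no overlap. The log2 change in monoculture was 1.48 ± 0.11 (standard error, n = 3 arrays per group, as in all changes below), a 2.78-fold rise (adjusted p = 1.67e-11). The other 3 probes of RPS29, at mean levels near 14, changed by -0.01 to 0.11 and did not pass.

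Among the other small-subunit proteins, RPS27L, the p53-responsive paralog of RPS27, was at 10.76, 10.71 and 10.87 with DMSO and at 11.44, 11.40 and 11.52 with gefitinib. It rose by 0.67 ± 0.09 (adjusted p = 4.58e-07). RPS23, which lines the decoding centre, was at 8.64, 8.52 and 8.45 with DMSO and at 9.10, 9.05 and 9.06 with gefitinib, a rise of 0.53 ± 0.08 (adjusted p = 5.61e-06). In both genes the groups did not overlap. RPS9, a protein of the small subunit's body, rose by 0.38 ± 0.09 and 0.28 ± 0.09 on its pair of probes (adjusted p = 0.00135 and 0.0123). RPS27, which carries a zinc finger, rose by 0.36 ± 0.08 on its dimmest probe (adjusted p = 6.93e-04), while its 2 bright probes changed by 0.01 and -0.08 and did not pass. With scanner intensities scaled by their median, the RPS9 probe with the larger rise gave 0.24 and RPS27 gave 0.19, and neither passed, nor did the other RPS9 probe.

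Large-subunit proteins that rose included RPL13A, which also serves outside the ribosome as a repressor of inflammatory messenger RNAs. Its level was 12.14, 12.17 and 12.17 with DMSO and 12.76, 12.87 and 12.72 with gefitinib, and the change was 0.62 ± 0.08 (adjusted p = 3.36e-07). RPL22, mutated in several cancers and dispensable for translation in mice, was at 11.23, 11.14 and 11.08 with DMSO and at 11.63, 11.58 and 11.72 with gefitinib. It rose by 0.49 ± 0.08 (adjusted p = 1.63e-05), and neither gene's groups overlapped. RPL37 rose by 0.65 ± 0.10 from a level of 7.45 (adjusted p = 6.25e-06), and the same probe gave 1.06 after background correction. RPL28 rose by 0.51 ± 0.08 (adjusted p = 1.19e-05) and RPL12, at the base of the stalk, by 0.42 ± 0.08 on 1 of its 2 probes (adjusted p = 1.43e-04). RPL4, RPL7, RPL7A, RPL9, RPL10A, RPL14 and RPL3 each had a probe that rose by 0.23 to 0.30. Of these 7, RPL4, RPL7, RPL7A, RPL9 and RPL14 did not pass after background correction or under median scaling, and RPL10A did not pass under median scaling.

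The largest fall was on a probe of RPS15, which the small subunit needs to leave the nucleus. Its level (ILMN_2219131) was 9.91, 10.08 and 10.06 with DMSO, 9.08, 9.05 and 8.97 with gefitinib, 10.13, 10.24 and 10.00 in co-culture and 10.01, 10.26 and 9.96 in co-culture with gefitinib. Only the 3 gefitinib monoculture arrays were under 9.9. The probe fell by 0.98 ± 0.09 on the log2 scale (adjusted p = 8.41e-10), and the other 2 probes of the gene, at mean levels of 13.51 and 13.92, changed by -0.15 and 0.09 and did not pass.

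RPL36A, the human counterpart of a yeast protein near the tRNA exit site, had levels of 10.62, 10.60 and 10.52 with DMSO and of 9.67, 9.60 and 9.63 with gefitinib. It fell by 0.94 ± 0.09 (adjusted p = 7.20e-10), with no overlap. The 2 probes of RPL36AL, its close paralog outside the symbol rule, changed by 0.04 and -0.03 and did not pass. The paralogs RPL26L1 and RPL7L1, with 2 probes each, changed by -0.21 to 0.04, and none of these 4 probes passed. Sequence shared between such copies, and the many processed pseudogenes of ribosomal proteins, could not be resolved from the files, so the transcript behind a dim probe is uncertain.

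RPL39L, a paralog of RPL39 known from testis and tumours, fell on both of its probes. The brighter one (ILMN_2108357) was at 9.81, 9.93 and 9.94 with DMSO and at 9.07, 9.06 and 9.01 with gefitinib, a change of -0.85 ± 0.09 (adjusted p = 3.97e-08), and the other changed by -0.75 ± 0.09 (adjusted p = 2.81e-07). RPL39 itself, at 14.05, 14.11 and 14.22 with DMSO and at 14.20, 14.08 and 14.17 with gefitinib, overlapped fully, with a change of 0.02 ± 0.08 (adjusted p = 0.909).

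RPS7, a small-subunit protein that can also bind MDM2, fell by 0.65 ± 0.09 on each of its 2 probes (adjusted p = 1.29e-06 and 1.21e-06). Its first probe (ILMN_1750722) was at 11.45, 11.58 and 11.65 with DMSO and at 10.81, 11.04 and 10.89 with gefitinib, without overlap. RPS24, whose 3′ end is alternatively spliced, fell by 0.68 ± 0.09 on the probe ILMN_2399893 (adjusted p = 4.02e-07). That probe read 11.51, 11.47 and 11.67 with DMSO and 10.96, 10.88 and 10.77 with gefitinib, while the bright RPS24 probe, annotated to another transcript, changed by 0.00.

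Smaller falls were seen for RPS26, at the messenger RNA exit channel, by 0.56 ± 0.08 on its dim probe (adjusted p = 6.24e-06; the probe gave -1.01 after background correction), and for RPL6 by 0.43 ± 0.09 on 1 of 3 probes (adjusted p = 2.58e-04). RPL29, a heparin-binding protein of the large subunit, fell by 0.41 ± 0.11 and 0.33 ± 0.09 on its 2 probes (adjusted p = 0.00467 and 0.00733). After background correction the RPL29 probes gave -0.43 and -0.35 and neither passed (adjusted p = 0.0664 and 0.0506). The 3 gefitinib arrays of each of these probes lay below the 3 DMSO arrays.

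**Figure D2:**
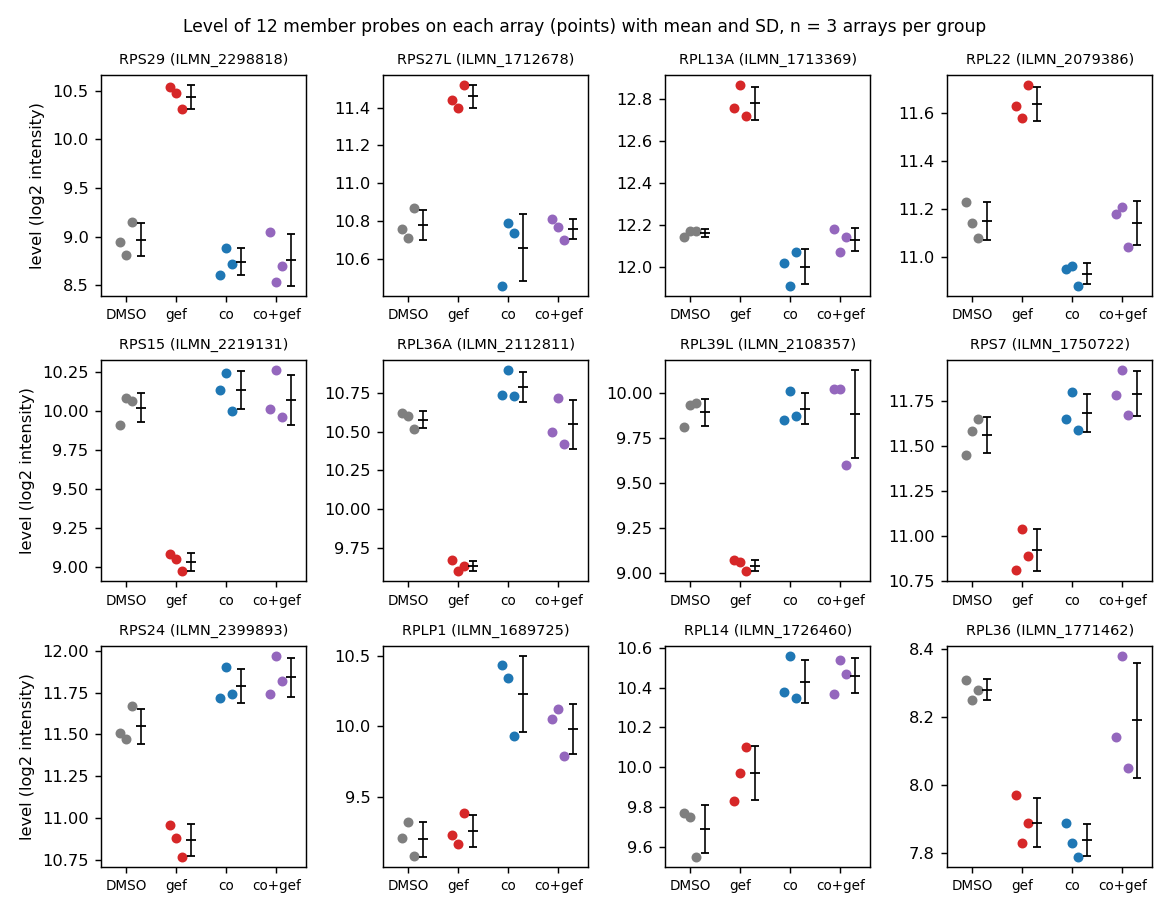
Level (log2 intensity) of 12 member probes on each of the 12 arrays, with mean and standard deviation of 3 arrays beside each group (DMSO, gefitinib, co-culture, co-culture with gefitinib). For RPS29, RPS27L, RPL13A, RPL22, RPS15, RPL36A, RPL39L, RPS7 and RPS24 the gefitinib monoculture arrays stand apart from the rest, and for RPLP1 and RPL14 the co-culture arrays do.

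Members with known roles in signalling, and the stalk proteins, did not pass in monoculture apart from those named above. RPS6, the classical substrate of the S6 kinases, read 14.11, 14.23 and 13.96 with DMSO and 14.20, 14.17 and 14.20 with gefitinib on its brighter probe, and the changes of its 2 probes were 0.09 and 0.12. RPL5 changed by 0.04 ± 0.08 (adjusted p = 0.745) and the 2 probes of RPL11 by -0.07 and -0.05. The stalk protein RPLP2 changed by 0.03, and the 3 probes of RPLP1 by -0.01 to 0.13. RPS4X, the X-linked copy of RPS4, changed by 0.18 and 0.12. None of these 11 probes of RPS6, RPL5, RPL11, RPLP1, RPLP2 and RPS4X passed in this comparison, against 32.1% of all tested probes. All but the dim RPLP1 probe (9.67) had a mean level of at least 13, where 2 of 64 members passed (3.12%). The result thus does not set these genes apart from other bright members.

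Different probes of one gene often disagreed. Of 31 member genes with several tested probes, 4 had all probes called in the same direction, RPS9 as a rise and RPL29, RPL39L and RPS7 as falls. In 11 genes only some probes passed, and in 10 of these 11 the dimmest probe was among those that passed. RPL32 and RPL36 had probes called in both directions, and 14 genes had no called probe. The signs of the changes differed between probes in 12 of the 31 genes, some of them with changes near 0, such as RPLP1 (-0.01 to 0.13). With gefitinib in co-culture, where 1 member probe passed, the signs differed in 14 of the 31. Differing signs alone therefore do not mark a disagreement.

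RPL36 shows the size of such a disagreement. Its dim probe (ILMN_1771462) read 8.31, 8.25 and 8.28 with DMSO and 7.97, 7.83 and 7.89 with gefitinib, a fall of 0.38 on the log2 scale. Its brighter probe (ILMN_1685088) read 12.90, 12.96 and 12.94 with DMSO and 13.09, 13.16 and 13.24 with gefitinib, a rise of 0.23 that did not pass after background correction or under median scaling. Neither pair of groups overlapped, and the annotation assigns the probes to different transcripts. RPL32, with 4 probes on 2 annotated transcripts, had changes of -0.33, 0.28 and 0.29 on dim probes (levels 6.82 to 7.55) and of -0.04 on its bright probe. The probes of RPS15, RPL6 and RPS26 are annotated to 1 transcript per gene, and theirs disagreed too.

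**Figure D3:**
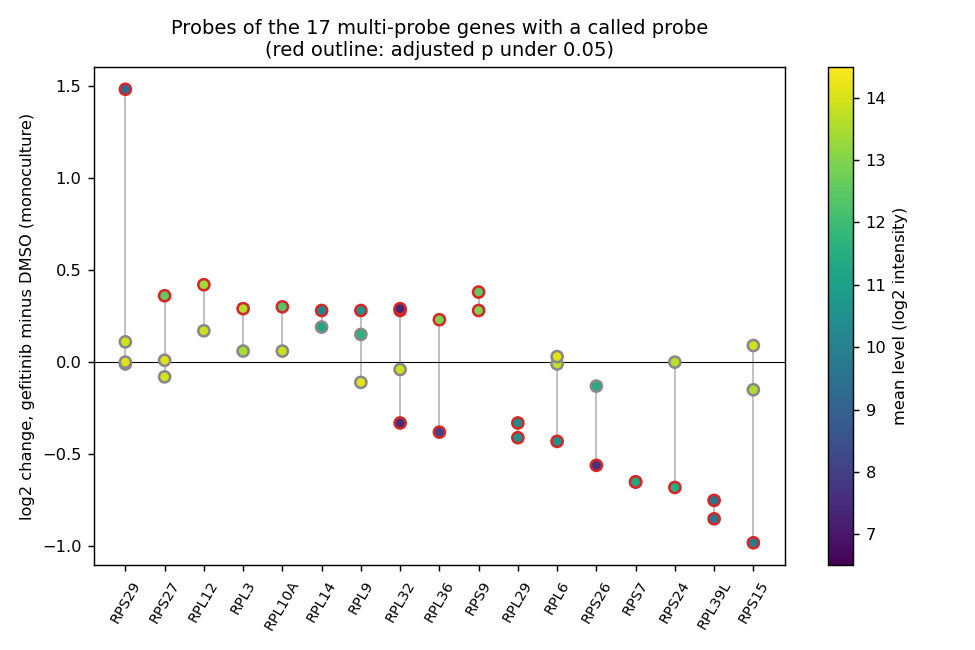
Log2 change with gefitinib in monoculture (vertical axis) for each probe of the 17 multi-probe member genes with at least 1 called probe; the colour gives the mean level (log2 intensity), a red outline marks an adjusted p under 0.05, and a grey line joins the probes of a gene. The RPS29 probes span -0.01 to 1.48 and the RPS15 probes -0.98 to 0.09.

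Members with a TOP tract occurred among the risen and the fallen probes. A tract was found in 10 of the 17 genes that had a risen probe and a promoter entry, in 4 of the 9 with a fallen probe, and in 30 of 36 tested genes with no called probe. RPS9 and RPL13A among the risers and RPL36A and RPS24 among the fallers carry the tracts printed above. These are counts only, and RPL32 and RPL36 stand on both sides.

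In co-culture, gefitinib moved hardly any member. Only the dim RPL36 probe passed, 1 of 114 (0.877%), against 2.11% of all tested probes (0.828% higher, 1.28% lower), and 10 members had an unadjusted p under 0.05. The RPL36 probe read 7.89, 7.83 and 7.79 in co-culture and 8.14, 8.38 and 8.05 with gefitinib, a rise of 0.35 ± 0.08 (adjusted p = 0.0184) with no overlap. This call was lost after background correction, under median scaling and when only the arrays compared were fitted, each of which left 0 members. The range of the 114 changes was -0.31 to 0.35 and the median 0.01.

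**Figure D4:**
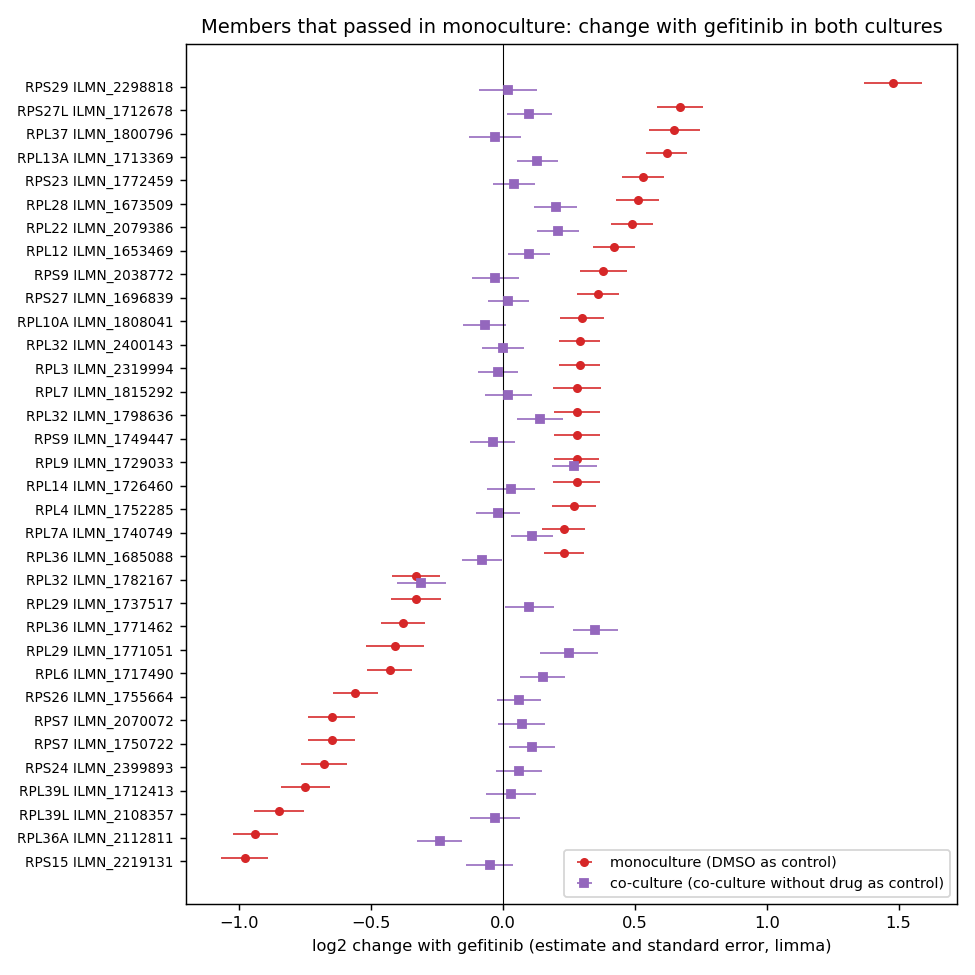
Log2 change with gefitinib, with its standard error, for the 34 member probes that passed in monoculture (red circles) and for the same probes in co-culture (purple squares). In monoculture the changes run from -0.98 to 1.48 by selection, and in co-culture from -0.31 to 0.35.

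The 34 probes called in monoculture had a median absolute change of 0.412 there, which their selection raises, and of 0.0665 in co-culture, where 1 of them passed. These 2 comparisons share no array. RPS29 changed by 0.02, RPS15 by -0.05, RPL39L by -0.03 and 0.03, and RPS7 by 0.11 and 0.07 with gefitinib in co-culture. RPL36A changed by -0.24 and RPL22 by 0.21 in the direction seen in monoculture, and neither passed.

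The difference between the gefitinib changes in the 2 cultures was tested as an interaction. It passed for 24 of 114 member probes (21.1%), 13 with a more positive change in co-culture and 11 with a more negative one, against 19.7% of all tested probes (9.09% and 10.6%). It was -1.45 ± 0.16 for RPS29 (adjusted p = 6.18e-08), 0.93 ± 0.13 for RPS15 (adjusted p = 2.88e-06) and 0.70 ± 0.12 for RPL36A (adjusted p = 7.58e-05). RPL39L gave 0.82 and 0.78, RPS7 0.75 and 0.72, RPS24 0.73 and the dim RPL36 probe 0.74. RPL37, RPS27L, RPL13A and RPS23 gave -0.68, -0.57, -0.49 and -0.49. After background correction the interaction passed for 15 member probes, 10 with a more positive and 5 with a more negative change in co-culture. For RPL22 the interaction was -0.28 (adjusted p = 0.0863) and did not pass.

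Co-culture without gefitinib raised 8 member probes and lowered 2, which is 8.77% of the members against 6.35% of all tested probes (3.02% higher, 3.33% lower). Among the epithelial markers EPCAM was higher and CDH1 and KRT19 lower in this comparison, as given above. The largest member change was on a dim probe of RPLP1, one of the acidic stalk proteins (ILMN_1689725). It read 9.21, 9.32 and 9.08 in DMSO monoculture and 10.43, 10.34 and 9.93 in co-culture, with 10.05, 10.12 and 9.79 in co-culture with gefitinib. The 6 co-culture arrays were above the 6 monoculture arrays. The change was 1.03 ± 0.11 (2.04-fold, adjusted p = 3.83e-07), while the other 2 RPLP1 probes, at mean levels of 13.31 and 13.93, changed by 0.09 and 0.05 and did not pass.

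RPL14 was the other member with a sizeable rise. Its dimmer probe (ILMN_1726460) read 9.77, 9.75 and 9.55 in DMSO monoculture and 10.38, 10.56 and 10.35 in co-culture, a rise of 0.74 ± 0.09 (adjusted p = 2.74e-06) without overlap. RPL7, RPL9, RPS28, RPL23, RPS27 and RPL10A rose by 0.41, 0.40, 0.39, 0.38, 0.33 and 0.28 on 1 probe each, and in RPL23 the groups overlapped. RPL36 fell by 0.44 ± 0.08 on its dim probe (adjusted p = 0.00124) and RPL28 by 0.31 ± 0.08 (adjusted p = 0.0202). After background correction only RPLP1 (1.15), RPL14 (0.81) and RPL36 (-0.63) passed, and the other 7 had adjusted p-values from 0.0648 to 0.202. The RPL10A call was lost in 8 of 21 alternatives. Without DMSO monoculture replicate 2 the members called were 5 instead of 10, and without DMSO monoculture replicate 3 or co-culture replicate 2 they were 6.

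Under gefitinib, co-culture differed from monoculture on 18 member probes that were higher and 13 that were lower, 27.2% of the members against 36.1% of all tested probes (15.4% higher, 20.7% lower). This comparison uses the gefitinib monoculture arrays already described, so its values are not independent of those above. Markers differed in it too: epithelial probes were called in both directions, and LUM and COL1A1 were lower in co-culture. RPS29 was lower by -1.69 ± 0.11 (adjusted p = 1.09e-12), RPS27L by -0.70 ± 0.09 and RPL13A by -0.66 ± 0.08. RPS15 was higher by 1.04 ± 0.09 (adjusted p = 2.68e-10), RPS24 by 0.97, both RPS7 probes by 0.87 and 0.95, both RPL39L probes by 0.83 and 0.95 and RPL36A by 0.91. RPLP1 and RPL14, on the probes named above, were higher by 0.72 and 0.49. RPS28, a small protein at the messenger RNA exit, read 12.77, 12.81 and 12.91 in gefitinib monoculture and 13.39, 13.33 and 13.05 in co-culture with gefitinib, a change of 0.43 ± 0.08 (adjusted p = 1.98e-04) without overlap.

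Brightness divided the members in this comparison too. Of the 64 members at a level of at least 13, 3 passed (4.69%), which were RPS28, RPL3 and RPL10A, against 36.7% of the 120 other probes at or above that level, where 1 of the 20 at 14 or more passed. Of the 50 dimmer members 28 passed (56.0%), against 36.1% of the other dim probes. With only probes detected on all 12 arrays tested, these shares were 62.5% of 48 members and 51.5% of 11844 other probes. In the 22 alternative treatments of the data, the bright members called ranged from 2 to 11 here and from 1 to 6 for gefitinib in monoculture.

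Genes that work with the ribosomal proteins were counted in lists chosen by name. Of the 14 probes of 10 escort and assembly partners of ribosomal proteins, 10 fell and 1 rose with gefitinib in monoculture (78.6%, against 32.1% of all tested probes), with a median change of -0.37. The largest falls were those of BCCIP, an escort of RPL23, by 0.87 ± 0.08 (adjusted p = 2.21e-09), and RPF2, which brings the 5S RNA particle with RPL5 and RPL11 to the ribosome, by 0.69 ± 0.08 (adjusted p = 6.64e-08). In co-culture 0 of the 14 passed with gefitinib (limma), against 2.11% of all tested probes. Under gefitinib 10 were higher and 1 lower in co-culture than in monoculture, against 15.4% and 20.7% of all tested probes. That comparison uses the same gefitinib monoculture arrays as the falls above, so it is not independent of them.

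The mitochondrial ribosomal proteins, which build a separate ribosome inside mitochondria, were called mostly as falls. Of 107 tested probes 57 fell and 5 rose with gefitinib in monoculture (57.9%, against 32.1% of all tested probes), with a median change of -0.25. The 114 cytosolic probes had 13 falls and 21 rises, which became 19 falls and 11 rises under median scaling. MRPL19 fell by 0.73 ± 0.09 (adjusted p = 3.22e-07). Under gefitinib, 61 of the 107 were higher in co-culture and 3 lower, against 15.4% and 20.7% of all tested probes. The same gefitinib monoculture arrays enter both comparisons, so these counts are not independent of the falls. No test was made of the difference between the 2 families.

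Of 28 probes of elongation factors and other genes with TOP messenger RNAs, 7 rose and 3 fell with gefitinib in monoculture, with a median of 0.11. These calls are 35.7% of the list, near the 32.1% of all tested probes. EIF4B, an initiation factor, rose by 0.61 ± 0.09 (adjusted p = 6.27e-06) and EEF1B2, an elongation factor subunit, fell by 0.53 ± 0.10 (adjusted p = 1.35e-04). EEF2, the translocation factor, rose by 0.28 ± 0.08 (adjusted p = 0.00844). EEF1A1 had the pattern of many members, with 3 probes at levels near 14.3 that changed by -0.09 to 0.08 and a dim probe that rose by 0.49. FAU, the precursor of RPS30, changed by -0.02. Among 45 probes of other initiation factors 4 rose and 11 fell (33.3%, again near 32.1%), with a median of -0.05. The helicase EIF4A2 rose by 0.66 ± 0.08 (adjusted p = 1.87e-07), and EIF1AX, which binds the small subunit during scanning, fell by 0.66 ± 0.12 (adjusted p = 1.02e-04).

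**Figure D5:**
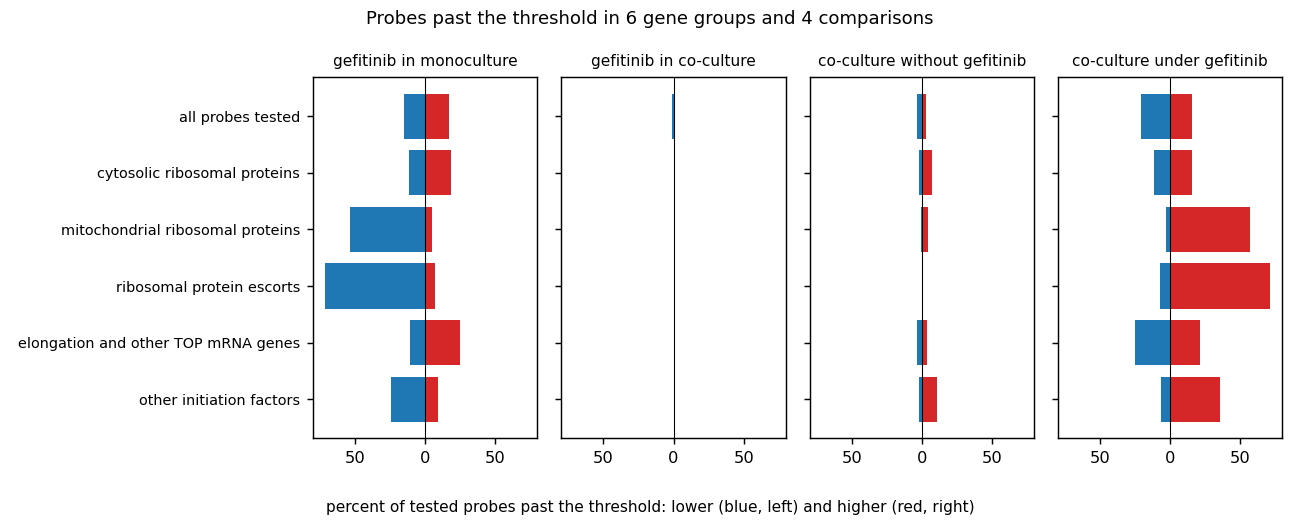
Percent of tested probes that were lower (blue, to the left) or higher (red, to the right) at an adjusted p under 0.05, in 4 comparisons and for 6 groups of probes. Gefitinib in monoculture and in co-culture are drug minus no drug, and co-culture without and under gefitinib are co-culture minus monoculture. With gefitinib in monoculture 57 of 107 mitochondrial and 13 of 114 cytosolic ribosomal protein probes were lower.

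Regulators of ribosomal protein synthesis gave 5 rises and 3 falls among 26 probes with gefitinib in monoculture, 30.8% against 32.1% of all tested probes. DDIT4, an inhibitor of mTOR complex 1, fell by 1.45 ± 0.08 (adjusted p = 3.69e-14) and TSC1, part of another inhibitor, rose by 0.66 ± 0.10 (adjusted p = 3.18e-06). MYC, a transcription factor that drives ribosome synthesis, rose by 0.26 ± 0.09 on one probe (adjusted p = 0.0238) and changed by 0.02 on the other. EIF4EBP1, a repressor of cap-dependent translation, fell by 0.32 ± 0.09 (adjusted p = 0.00899). DDIT4 also fell by 0.87 ± 0.08 with gefitinib in co-culture (adjusted p = 4.57e-08), the 1 probe of this list that passed there.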

How the data were processed

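Expression was measured on 12 Illumina arrays (4 groups of 3, grouped by title). One deposited table has the scanner's linear intensity and a detection p-value for each probe, per the file headers. Another deposited table has the intensity after the authors' normalization, whose method the sources used here do not name; as its values show, it is linear and without background subtraction. Low levels therefore understate folds. log2 of it was used for all values. Scanner rows of the co-culture arrays were re-matched to probe names through the normalized values (48106 of 48106 mutual best matches), which affects the detection filter and the scanner alternatives only. Biotin-labelled cRNA came from an Ambion kit, per the labels' protocols.

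Probes with 1 symbol and a detection p under 0.05 on at least 3 arrays were tested with limma 3.58.1 (R 4.3.3): 1 mean per group over 12 arrays, moderated variances, two-sided, Benjamini-Hochberg over 18238 probes, threshold 0.05. The fit was tested on simulated data. Errors of changes are standard errors. Precision is limited by 3 arrays per group.

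The members, the lists and the tests were chosen with earlier results of these data known. Named were the 10 largest rises and 10 largest falls among called members of each comparison, members with special roles, up to 3 called probes per list and comparison, and always MYC, FAU, EEF1A1, EEF2 and EIF4EBP1 where tested; the escort, TOP, initiation factor, regulator, paralog and mitochondrial lists were chosen by name. Platform symbols were used; 17983 probes have no symbol and 8 several. Alternatives covered background correction (limma's neqc, offset 16), scaling, filters, probes per gene, samples in the fit, a replicate block, a variance trend and leaving out each array.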

Additional observations from a re-analysis of the deposited data

Results flagged for a closer look

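For 24 member probes the gefitinib change in co-culture differed from that in monoculture by the interaction term of the model (limma, adjusted p under 0.05), and 19.7% of all tested probes met the same rule. The difference, co-culture minus monoculture on the log2 scale, was negative for 11 probes. It was -1.45 for RPS29, -0.68 for RPL37, -0.57 for RPS27L, -0.49 for RPL13A, -0.49 for RPS23 and -0.41 for RPS9. It was -0.37 for RPL10A, -0.34 for RPS27, -0.32 for RPL12, -0.31 for RPL3 and -0.31 for the brighter probe of RPL36. The last 6 of these were not stable: the call was lost in 6 of 20 alternatives for RPS9, 7 of 20 for RPL10A, 9 of 20 for RPS27, 12 of 20 for RPL12, 13 of 21 for RPL3 and 13 of 21 for RPL36, in each case after background correction and under median scaling among others.

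It was positive for 13 probes. The smallest were 0.34 for RPL23A, 0.43 and 0.66 for the probes of RPL29, 0.57 for RPL6 and 0.62 for RPS26. RPL36A gave 0.70, RPS7 0.72 and 0.75, RPS24 0.73 and the dim probe of RPL36 0.74. RPL39L gave 0.78 and 0.82 and RPS15 0.93. RPL23A had passed in neither culture with gefitinib, with the interaction at an adjusted p of 0.0499, and lost its call in 14 of 21 alternatives. The RPL29 probes lost theirs in 5 of 20 and 1 of 21, background correction among them. Groups of 3 arrays were too small for a check of single arrays that stand apart.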

How the results depend on the processing

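Of the 100 member calls over the 5 comparisons, the interaction included, 65 kept their call in every alternative that gave them a value (up to 22), 35 lost it in at least 1 and 0 turned direction. With 1 probe per gene, the brightest, the members called were 17 for gefitinib in monoculture (34 with all probes), 0 in co-culture (1), 4 for co-culture without gefitinib (10), 16 under gefitinib (31) and 11 for the interaction (24), with fewer probes tested. Background correction by neqc gave 0 for gefitinib in co-culture, 3 for co-culture without gefitinib and 15 for the interaction, and over all probes 212 (385) and 614 (1158) in the first 2. For gefitinib in monoculture it left 2 members called at a level of at least 13 and 23 under it (2 and 32). For co-culture under gefitinib it left 2 and 26 (3 and 28). Median scaling and the fit of only the arrays compared each gave 0 for gefitinib in co-culture, and a variance trend gave 16 for co-culture without gefitinib. Leaving out 1 array gave 0 to 3 members for gefitinib in co-culture and 5 to 11 for co-culture without gefitinib, where all probes called ranged from 701 to 1275.

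Directions depended on scaling. Median scaling gave 11 rises and 19 falls among members for gefitinib in monoculture (21 and 13), 2377 and 3325 among all probes (3124 and 2738), and 91 and 270 among all probes for gefitinib in co-culture (151 and 234). It gave 27 higher and 12 lower members for co-culture under gefitinib (18 and 13) and 13 and 5 for the interaction (13 and 11), where neqc gave 10 and 5. Cyclic loess gave 638 and 455 for all probes in co-culture without gefitinib (550 and 608). The cause was not tested.

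The replicate block gave 37, 1, 10, 32 and 25 members against 34, 1, 10, 31 and 24 without it, in the order above. Deviations from the group means correlated at -0.091 to 0.194 between arrays with the same number, over 0.1 in 2 of 18 pairs. Between arrays with different numbers they correlated at -0.269 to 0.122. By this measure 7 of 12 arrays correlated best with one of their own number. These values do not settle whether the numbers mark pairs, and the main fit did not use them.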
